A study of Homo sapiens with 8 samples.

Results

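RSPO4 and 9 further genes of the Wnt and R-spondin pathway were followed in bladder cancer cells with and without knock-down of PAI-1. The 10 genes were RSPO4, LGR4, LGR5, RNF43, ZNRF3, AXIN2, CTNNB1, LEF1, TCF7L2 and WNT7B, found by symbol among 27475 human genes. RSPO4 was selected on its lower value with siPAI-1 in both cell lines, so the members' differences between siPAI-1 and Scr are given as a description. The fit of this contrast over all genes is given by its counts of calls, and nothing about the members rests on it. The stated selection used no difference between the cell lines, and that difference was tested. The members were, however, chosen with earlier results of these data known. For RSPO4, the line differences in Scr and in siPAI-1 use libraries on which RSPO4 was selected, so neither is an independent test.

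UM-UC-3 and RT112 are established human bladder cancer cell lines. Cells of each line received either siPAI-1, a pool of 3 siRNAs against PAI-1, or Scr, a pool of 3 scrambled siRNAs, at 100 pmol for 72 h. RNA-seq gave 2 libraries in each of the 4 groups, and nothing in the labels says that the replicates came from separate cultures, so p-values measure only the spread between these libraries. Values are TPM, a read share per unit of gene length that sums to the same total in every library, and differences are on the log2(TPM + 0.1) scale, which understates changes of low genes.

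Estimated depth was 29.2 to 34.0 M reads per library. Of 15 epithelial and urothelial marker genes, 13 reached 1 TPM in RT112 and 6 in UM-UC-3. In UM-UC-3, EPCAM lay between 0.14 and 0.46 TPM and CDH1 between 0 and 0.48 TPM. UPK3A was at 0 in UM-UC-3 and at 0 to 0.08 TPM in RT112, so it did not separate the lines. The summed level of these markers was 227 to 245.6 TPM in UM-UC-3 and 12360 to 14020 TPM in RT112. All 5 mesenchymal markers reached 1 TPM in UM-UC-3 and 3 of 5 in RT112, with summed levels of 3006 to 3292 TPM and 72.56 to 147.2 TPM. VIM carried most of the sum in UM-UC-3 (2852.45 to 3142.15 TPM, against 6.04 to 8.09 TPM in RT112). In Scr, FN1 and CDH2 were instead higher in RT112, FN1 at 112.61 and 120.39 TPM against 64.29 and 70.56 TPM, and CDH2 at 18.19 and 20.58 TPM against 10.61 and 9.22 TPM. The part of this difference in the line comparisons below was not tested.

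Wnt ligands bind Frizzled receptors with LRP co-receptors, which stops the destruction complex around AXIN and APC from degrading β-catenin, the product of CTNNB1. β-catenin then enters the nucleus and activates genes with TCF and LEF factors. RNF43 and ZNRF3 are membrane ubiquitin ligases that remove Frizzled receptors, and R-spondins, bound to LGR receptors, take these ligases away and so raise the sensitivity of a cell to Wnt.

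RefSeq (GRCh38.p14) places RSPO4 at chr20:958452-1002311, CTNNB1 at chr3:41199505-41240443 and LEF1 at chr4:108047548-108168932. The 250 bases before the start are printed for RSPO4, the selected gene, and for CTNNB1 and LEF1, 2 members whose difference between the lines passed the test under every alternative run. Capitals mark the letters GGGCGG or CCGCCC, the GC box on either strand.
RSPO4, chr20:1002312-1002561, minus strand: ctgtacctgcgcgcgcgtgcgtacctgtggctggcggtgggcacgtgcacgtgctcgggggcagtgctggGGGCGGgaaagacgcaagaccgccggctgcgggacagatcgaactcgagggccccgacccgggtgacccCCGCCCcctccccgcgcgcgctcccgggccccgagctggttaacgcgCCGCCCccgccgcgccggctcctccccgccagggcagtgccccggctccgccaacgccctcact
CTNNB1, chr3:41199255-41199504, plus strand: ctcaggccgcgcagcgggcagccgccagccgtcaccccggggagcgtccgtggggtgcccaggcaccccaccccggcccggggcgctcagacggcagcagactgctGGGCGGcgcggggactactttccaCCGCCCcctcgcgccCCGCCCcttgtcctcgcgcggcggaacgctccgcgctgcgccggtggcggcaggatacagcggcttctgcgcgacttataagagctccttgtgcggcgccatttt
LEF1, chr4:108166302-108166551, minus strand: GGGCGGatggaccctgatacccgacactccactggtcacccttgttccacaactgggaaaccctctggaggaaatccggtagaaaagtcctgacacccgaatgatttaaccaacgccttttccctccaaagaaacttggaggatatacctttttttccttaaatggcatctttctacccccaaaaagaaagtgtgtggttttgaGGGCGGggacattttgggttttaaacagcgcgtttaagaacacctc
The window of RSPO4 was 77.2% GC, higher than 93.2% of all promoters, and held 36 CpG and 3 GC boxes. The window of CTNNB1 was alike, with 74.4% GC, 34 CpG and 3 GC boxes, whereas that of LEF1, which lies before a start inside the gene's span, was 47.6% GC with 8 CpG and 2 GC boxes. Of 35116 promoters, 42.6% held a GC box. The TCF/LEF letters searched were CTTTGAA, together with the variant CTTTGAT, the variant CTTTGTA and the variant CTTTGTT, each read on both strands, and 12% of the promoters held at least 1 of them. None of these letters were in the 3 windows printed. A match or its absence describes these windows only.

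Among the ligands and agonists, RSPO4, a secreted R-spondin, was low in all 8 libraries. RSPO4 was at 0.45 and 0.62 TPM in UM-UC-3 Scr, 0.13 and 0.09 TPM in UM-UC-3 siPAI-1, 0.45 and 0.46 TPM in RT112 Scr, and 0.02 and 0.04 TPM in RT112 siPAI-1. In each line both siPAI-1 libraries lay below both Scr libraries. The fitted log2 difference was -1.59 (SE 0.43) in UM-UC-3 and -2.10 (SE 0.37) in RT112. These levels rest on few reads, estimated at 61 in the 2 Scr libraries of UM-UC-3 against 13 with siPAI-1, and at 49 against 3 in RT112. By these reads, which are upper estimates, the siPAI-1 level was 20.7% of Scr in UM-UC-3 and 5.58% in RT112. RSPO4 was selected on this contrast, so these percentages describe the libraries at hand only. Less RNA per cell and fewer cells with RSPO4 RNA cannot be told apart in bulk samples.

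No overlap between the groups in the lower direction was seen for 3.05% of the 16691 genes tested in both lines, and 0.282% were at least 2-fold lower in both. RSPO4 was chosen for this pattern, so nothing is read from these shares. Ordered by mean level, RSPO4 was highest in UM-UC-3 Scr and RT112 Scr, which overlapped, then in UM-UC-3 siPAI-1 and last in RT112 siPAI-1. Between the lines RSPO4 did not pass the test, with a log2 difference of -0.18 (SE 0.31, adjusted p = 0.679) in Scr and -0.69 (SE 0.31, adjusted p = 0.111) in siPAI-1. The latter did pass without either UM-UC-3 Scr library and with eBayes without trend (adjusted p = 0.0253). RSPO4 was selected on these same libraries, so nothing is read from its line differences.

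**Figure D1:**
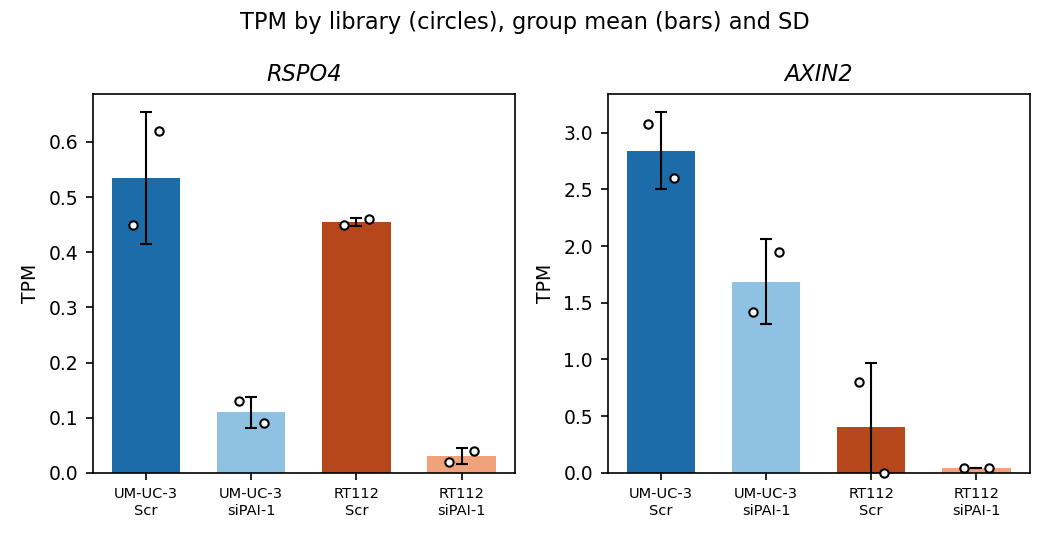
TPM of RSPO4 and AXIN2 (vertical axes, linear from 0) in the 4 groups; circles are libraries, bars are means and error bars are SD (n = 2). RSPO4 is lower in the siPAI-1 libraries of both lines, and the RT112 Scr libraries of AXIN2 stand at 0.8 and 0 TPM.

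The other R-spondins were barely detected. RSPO1 had 0.02 and 0.12 TPM in UM-UC-3 Scr and was listed at 0 in the other 6 libraries. RSPO2 was above 0 in 1 library (0.02 TPM, UM-UC-3 siPAI-1 replicate 2) and RSPO3 in 1 library (0.11 TPM, UM-UC-3 Scr replicate 2). RSPO4 was the only R-spondin above 0 in all 8 libraries.

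Ranked over the 8 libraries among 12803 genes (mean TPM of 1 or more), genes whose log2(TPM + 0.1) followed RSPO4 closely included ARAP1 (Pearson r = 0.923), FAM109A (0.894), ECM1 (0.893) and TSSK6 (0.877). The libraries share the siRNA groups on which RSPO4 was chosen, so these r are a description. For ARAP1, which had the highest r of these 4, the levels were 38.78 and 42.87 TPM in UM-UC-3 Scr, 38.54 and 34.77 TPM in UM-UC-3 siPAI-1, 45.62 and 42.45 TPM in RT112 Scr, and 31.3 and 32.51 TPM in RT112 siPAI-1. ARAP1 was lower with siPAI-1 in both lines with no overlap, as were 3.05% of the 16691 genes tested in both. In UM-UC-3 the groups nearly met, at 38.54 TPM with siPAI-1 against 38.78 TPM in Scr. ARAP1 was picked for its likeness to RSPO4, so nothing is read from this pattern.

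WNT7B, a Wnt ligand, was higher in RT112 than in UM-UC-3. WNT7B was at 21.66 and 18.84 TPM in UM-UC-3 Scr, 20.22 and 19.16 TPM in UM-UC-3 siPAI-1, 43.35 and 42.52 TPM in RT112 Scr, and 36.47 and 40.86 TPM in RT112 siPAI-1. All 4 RT112 libraries lay above all 4 UM-UC-3 libraries. The log2 difference between lines was 1.08 (SE 0.10, limma adjusted p = 0.000126) in Scr and 0.97 (SE 0.10, adjusted p = 0.000209) in siPAI-1. With siPAI-1 both RT112 libraries were below both Scr libraries, by a fitted log2 difference of -0.15.

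Among the receptors of R-spondins, LGR4 was expressed and LGR5 was listed at 0 in all 8 libraries. At this depth 3 reads of LGR5 would be 0.0281 to 0.0332 TPM, and a listed 0 does not exclude levels below that. LGR4 was at 10.43 and 10.06 TPM in UM-UC-3 Scr, 10.69 and 13.28 TPM in UM-UC-3 siPAI-1, 15.83 and 13.14 TPM in RT112 Scr, and 17.93 and 15.28 TPM in RT112 siPAI-1. UM-UC-3 siPAI-1 replicate 2 reached into the range of RT112 Scr, while within Scr and within siPAI-1 the lines did not overlap. The log2 difference of LGR4 between lines was 0.49 (SE 0.16, adjusted p = 0.0371) in Scr and 0.47 (SE 0.16, adjusted p = 0.0423) in siPAI-1. These calls lay near the threshold. In Scr LGR4 did not pass without either UM-UC-3 Scr library, RT112 Scr replicate 1 or either RT112 siPAI-1 library (adjusted p = 0.0573 to 0.184), and in siPAI-1 it did not pass without any library other than UM-UC-3 siPAI-1 replicate 2 (0.0534 to 0.204). It also did not pass with eBayes without trend (0.0582 in Scr and 0.0647 in siPAI-1) or, in siPAI-1, on the 4 libraries compared only (0.0776). The paralog LGR6 was listed at 0 in UM-UC-3 and varied in RT112, at 0.08 and 0.54 TPM in Scr and 0.44 and 0 TPM in siPAI-1.

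Of the ubiquitin ligases, ZNRF3 was the more abundant. ZNRF3 was at 4.37 and 4.79 TPM in UM-UC-3 Scr, 5.09 and 5.07 TPM in UM-UC-3 siPAI-1, 7.17 and 7.66 TPM in RT112 Scr, and 7.39 and 7.65 TPM in RT112 siPAI-1. The log2 difference between lines was 0.68 (SE 0.14, adjusted p = 0.00533) in Scr and 0.56 (SE 0.14, adjusted p = 0.0129) in siPAI-1. RNF43 was at 0.11 and 0.35 TPM in RT112 Scr and 0.22 and 0.11 TPM in RT112 siPAI-1. In UM-UC-3 it was listed at 0 in 3 libraries and had 0.01 TPM in siPAI-1 replicate 2. RNF43 passed the test between lines (adjusted p = 0.0158 in Scr and 0.0363 in siPAI-1). No fold is given because UM-UC-3 was at 0 in Scr and at 0 and 0.01 TPM in siPAI-1. In siPAI-1 it did not pass at a pseudocount of 1 TPM (adjusted p = 0.124) or with FPKM in place of TPM (0.0555). Without either UM-UC-3 Scr library RNF43 passed in neither comparison, and in siPAI-1 it also failed without any of the 4 siPAI-1 libraries (adjusted p = 0.0574 to 0.171).

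CTNNB1, β-catenin itself, was the most abundant member. CTNNB1 was at 147.27 and 135.94 TPM in UM-UC-3 Scr, 141.01 and 137.11 TPM in UM-UC-3 siPAI-1, 284.86 and 270.55 TPM in RT112 Scr, and 221.93 and 262.41 TPM in RT112 siPAI-1. The log2 difference between lines was 0.97 (SE 0.09, adjusted p = 0.000119) in Scr and 0.79 (SE 0.09, adjusted p = 0.000301) in siPAI-1. With siPAI-1 the RT112 mean was 87.2% of Scr, with no overlap, while in UM-UC-3 the groups overlapped.

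AXIN2, a scaffold of the destruction complex and itself a common target gene of the pathway, was higher in UM-UC-3. AXIN2 was at 3.08 and 2.6 TPM in UM-UC-3 Scr, 1.42 and 1.95 TPM in UM-UC-3 siPAI-1, 0.8 and 0 TPM in RT112 Scr, and 0.04 and 0.04 TPM in RT112 siPAI-1. In UM-UC-3 both siPAI-1 libraries lay below both Scr libraries, at 59.3% of the Scr mean. In RT112 the libraries overlapped, and the description rests on Scr replicate 1, without which the fitted log2 difference turned from -1.10 to 0.48. Between the lines the log2 difference was -3.29 (SE 0.93, adjusted p = 0.0232) in Scr and -3.66 (SE 0.93, adjusted p = 0.015) in siPAI-1. In Scr this call was lost without any 1 of the 4 UM-UC-3 libraries or the 2 RT112 siPAI-1 libraries (adjusted p = 0.0683 to 0.134), and in siPAI-1 without any 1 of the same 6 (0.0527 to 0.107). It was also lost at a pseudocount of 0.01 TPM (0.0612 in Scr and 0.0574 in siPAI-1) and, in Scr, on the 4 libraries compared only (0.0811). The size in Scr rests on the RT112 Scr libraries, at -4.87 without replicate 1 and -1.70 without replicate 2.

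**Figure D2:**
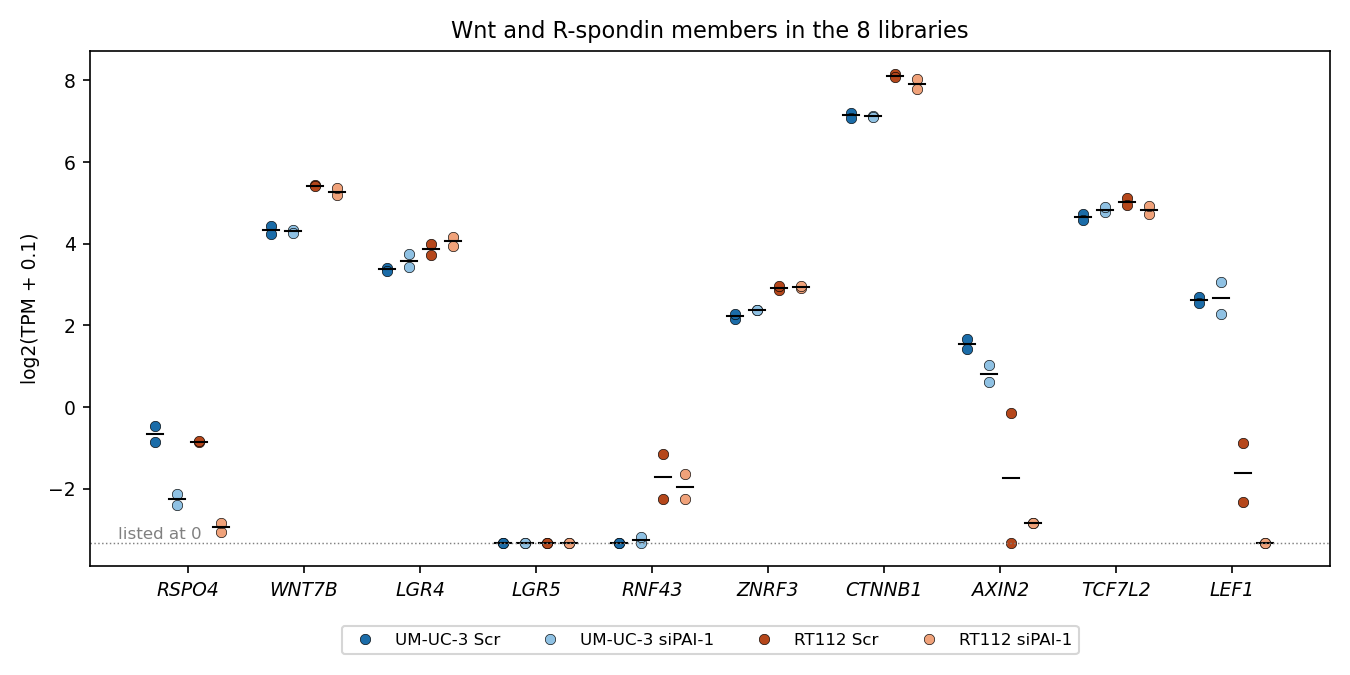
log2(TPM + 0.1) of the 10 members (vertical axis) in the 4 groups; points are libraries, bars are the mean of the log2 values, and the dotted line is where a gene listed at 0 falls. CTNNB1 is the highest member and LGR5 lies on the line in all 8 libraries.

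The nuclear factors differed in their pattern. LEF1 was at 6.39 and 5.78 TPM in UM-UC-3 Scr, 4.79 and 8.23 TPM in UM-UC-3 siPAI-1, 0.1 and 0.44 TPM in RT112 Scr, and listed at 0 in both RT112 siPAI-1 libraries. All UM-UC-3 libraries lay above all RT112 libraries, and the test between lines passed in Scr (log2 difference -4.23, SE 0.53, adjusted p = 0.000564) and in siPAI-1 (adjusted p = 0.000108). The RT112 Scr values rest on an estimated 7.5 and 30.7 reads, and no fold is given against the group at 0.

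TCF7L2 was at 26.37 and 23.85 TPM in UM-UC-3 Scr, 27.21 and 29.9 TPM in UM-UC-3 siPAI-1, 34.7 and 30.67 TPM in RT112 Scr, and 26.61 and 30.26 TPM in RT112 siPAI-1. The siPAI-1 libraries lay above Scr in UM-UC-3 and below Scr in RT112. Its log2 difference between lines was 0.38 (SE 0.11, adjusted p = 0.0253) in Scr and -0.01 (SE 0.11, adjusted p = 1) in siPAI-1. The call in Scr was lost without either UM-UC-3 Scr library or RT112 Scr replicate 1 (adjusted p = 0.0512 to 0.134), and with eBayes without trend (0.058).

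**Figure D3:**
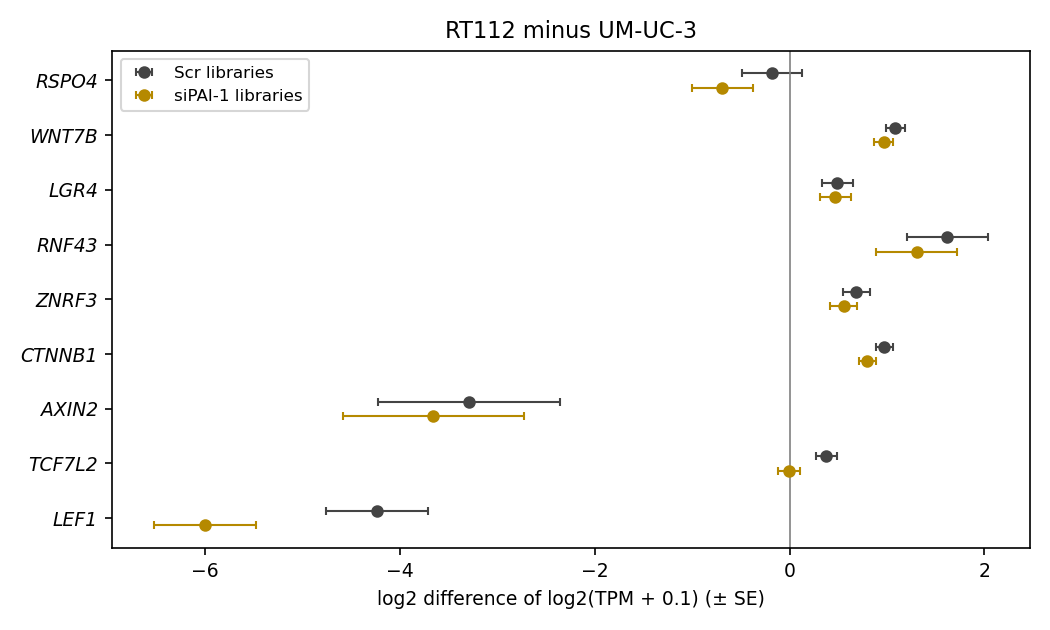
Difference of log2(TPM + 0.1) between RT112 and UM-UC-3 (horizontal axis) for the 9 members above 0 in at least 1 library, in Scr and in siPAI-1 libraries; bars are SE from limma. WNT7B, ZNRF3 and CTNNB1 lie above 0 and AXIN2 and LEF1 below 0 in both.

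In all, 8 of the 9 members tested passed the test between lines in Scr, 6 higher and 2 lower in RT112, where 51.5% of all genes tested did. In siPAI-1 it was 7 of 9, with 5 higher and 2 lower, against 52.1%. At least 2-fold apart were 4 members in Scr (31% of all genes) and 3 in siPAI-1 (31.7%). The counts of members depend on single libraries. Without UM-UC-3 Scr replicate 1 or replicate 2, 4 members passed in Scr, with LGR4, RNF43, AXIN2 and TCF7L2 lost. In siPAI-1, 4 passed without UM-UC-3 siPAI-1 replicate 1, RT112 siPAI-1 replicate 1 or RT112 siPAI-1 replicate 2. CTNNB1, LEF1, WNT7B and ZNRF3 kept their calls in both comparisons under all alternatives run. LGR4, RNF43, ZNRF3 and LEF1 overlap antisense genes in RefSeq. The paper names a stranded library kit, but the strand setting of the counting is not given. Reads of these antisense genes may therefore not have been told apart.

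Between siPAI-1 and Scr, limma called 0% of all genes in either line. At an unadjusted p under 0.05 were 1114 of 18528 genes in UM-UC-3 and 1063 of 18437 in RT112. The difference of the siPAI-1 effect between lines also gave 0% (1370 of 20274 genes unadjusted). With 2 libraries per group, this lack of calls does not show a lack of effects. The paper named differentially expressed genes in both lines with DESeq2, at a fold change of 2 and a p-value threshold of 0.05. It does not say whether that p-value was adjusted. Of 9 members, 2 were lower without overlap in UM-UC-3 (RSPO4 and AXIN2), where 17.1% of all genes were, and 3 were higher (LGR4, ZNRF3 and TCF7L2), where 15.1% were. In RT112, 5 were lower (RSPO4, CTNNB1, LEF1, TCF7L2 and WNT7B), where 14.7% of all genes were, and 0 were higher, where 18% were. The selection used this contrast, and nothing is read from these counts.

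**Figure D4:**
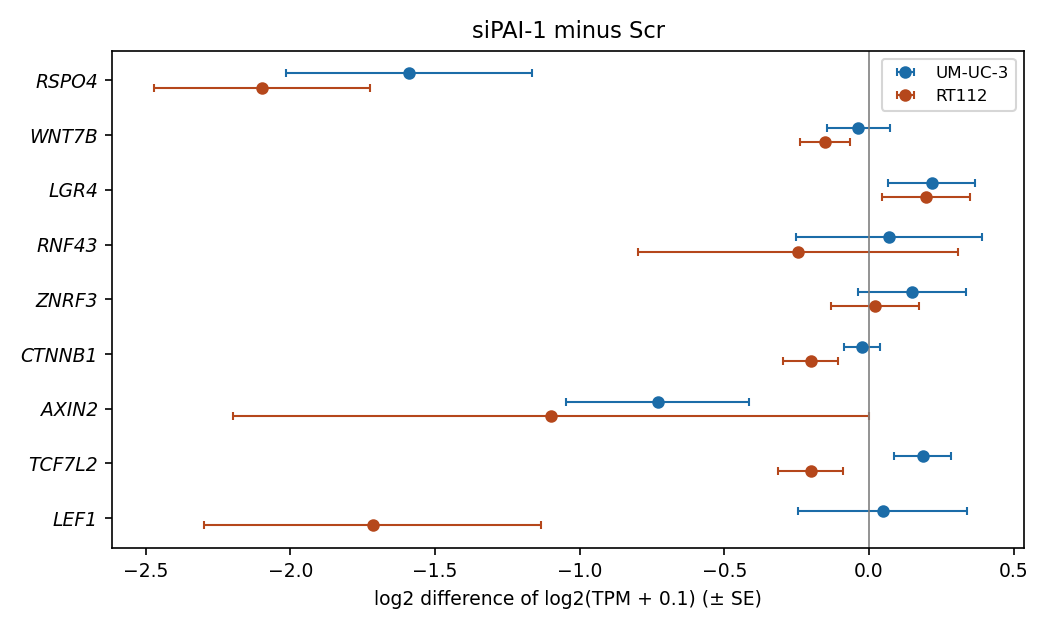
Difference of log2(TPM + 0.1) between siPAI-1 and Scr (horizontal axis) in each line for the 9 members above 0 in at least 1 library; bars are SE from limma. RSPO4 lies at -1.59 and -2.10, AXIN2 and in RT112 LEF1 also lie to the left, and the other members lie nearer 0.

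The wider pathway was described over 112 genes in lists by role, the members included, of which 104 were above 0 in at least 1 library. In Scr, 33 of these were higher and 31 lower in RT112 than in UM-UC-3, and 31 and 30 were so in both siRNA groups. Over all 20274 genes tested, 5067 were higher and 5380 lower in Scr, which is the 51.5% given above. Calls were more common among expressed genes, with 9029 of 12803 called in Scr at a mean of at least 1 TPM. Of the 104 Wnt genes, 78 reached that mean, so 51.5% is a low standard for them. The counts by role below are given without a test of any list. Between siPAI-1 and Scr none passed limma's adjusted p, and their median log2 difference was -0.01 in UM-UC-3 and -0.05 in RT112, beside -0.01 and 0.01 over all genes tested.

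Ligands and receptors were split between the lines. Of 15 ligands tested, 5 were higher and 3 lower in RT112 in Scr. WNT10A was at 31.49 and 32.21 TPM in RT112 Scr and at 0 and 0.02 TPM in UM-UC-3 Scr, and WNT11 at 27.9 and 22.49 TPM against 0.08 and 0.12 TPM. The ligands with the highest mean TPM, WNT5B and WNT5A, named after their values were seen, were lower in RT112. WNT5B was at 1.54 and 2.09 TPM in RT112 Scr against 120.17 and 109.6 TPM in UM-UC-3 Scr, and WNT5A at 2.94 and 4.87 TPM against 68.2 and 69.89 TPM. WLS, which carries Wnt ligands to the cell surface, was also lower in RT112, with 8.37 and 2.36 TPM in RT112 Scr against 77.53 and 72.4 TPM in UM-UC-3 Scr. PORCN, which attaches the lipid of Wnt ligands, was higher in RT112 (log2 difference 0.81, adjusted p = 0.0145).

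Of 16 receptors and co-receptors, 5 were higher and 6 lower in RT112. FZD6, a Frizzled receptor, was at 89.76 and 87.3 TPM in RT112 Scr and 0.38 and 0.25 TPM in UM-UC-3 Scr. ROR2, a receptor of WNT5A, was at 0 and 0.04 TPM against 3.96 and 4.43 TPM. Of 13 inhibitors 7 were higher and 1 lower, and among these APCDD1 was higher in RT112 (log2 difference 6.70, adjusted p = 2.71e-05) and DKK3 lower (-4.21, adjusted p = 4.27e-05).

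Inside the cell more genes were lower than higher in RT112. Of 18 cytoplasmic transducers and destruction complex genes, 2 were higher and 11 lower, including DVL2, a Dishevelled protein (log2 difference -1.86, adjusted p = 3.36e-06), and APC2 (-2.52, adjusted p = 0.00463). Of 15 nuclear factors, 2 were higher and 6 lower. TCF7 was at 1.72 and 2.3 TPM in RT112 Scr and 88.97 and 102.09 TPM in UM-UC-3 Scr, and TCF7L1 at 0.87 and 1.32 TPM against 22.92 and 21.43 TPM. Together with LEF1, 3 of the 4 TCF/LEF factors were thus lower in RT112.

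Of 17 feedback and common target genes, 7 were higher and 4 lower in RT112, and of 9 genes of planar cell polarity 6 were higher and 2 lower. VANGL2, a membrane protein of that branch, was at 1.96 and 1.81 TPM in RT112 Scr and 0 and 0.02 TPM in UM-UC-3 Scr, and PRICKLE2 at 0.12 and 0.17 TPM against 8.37 and 6.4 TPM.

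**Figure D5:**
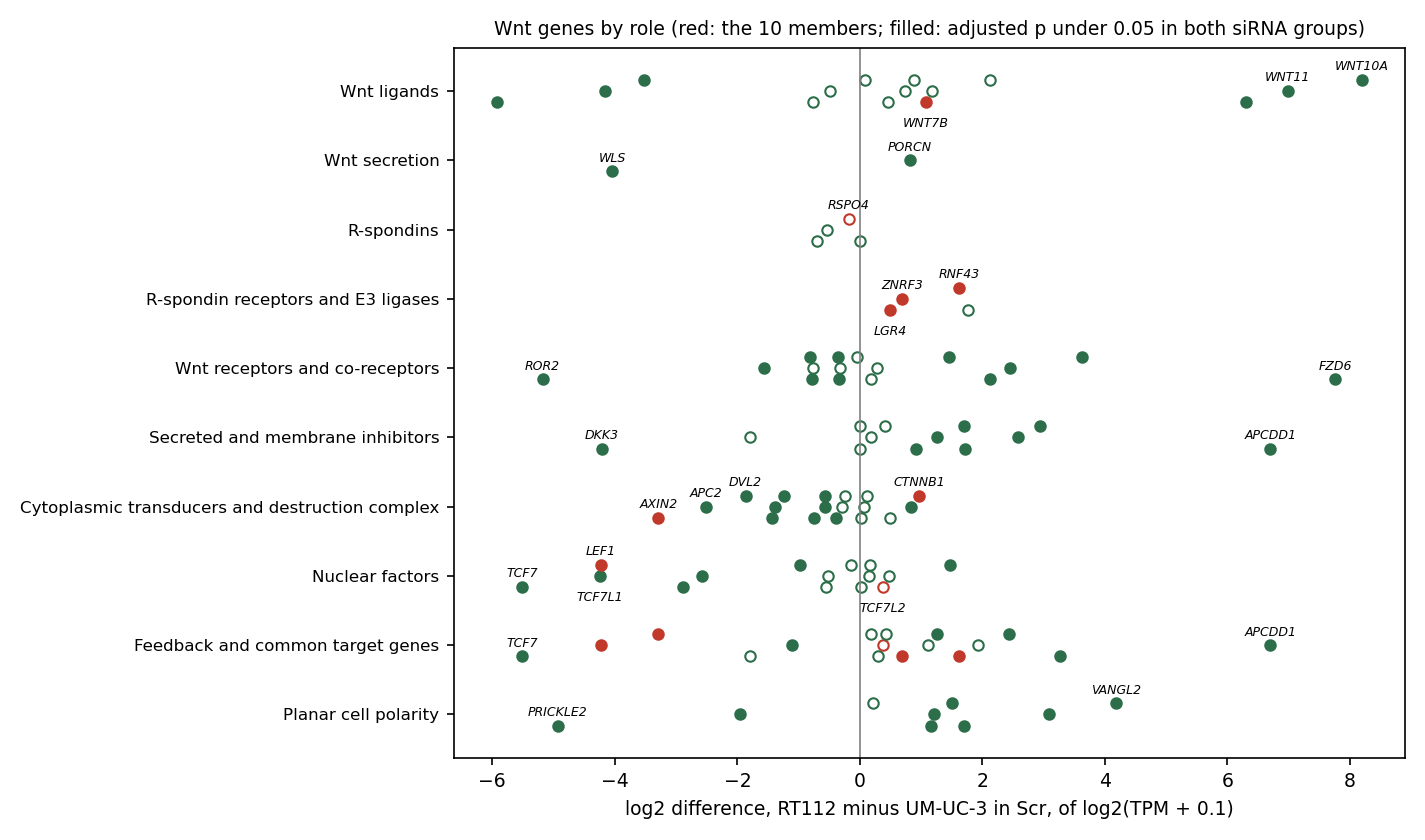
Difference of log2(TPM + 0.1) between RT112 and UM-UC-3 in Scr (horizontal axis) for the Wnt genes above 0 in at least 1 library, by role; each point is a gene, red marks the members and filled points passed limma's adjusted p under 0.05 in both siRNA groups. WNT10A, FZD6 and WNT11 lie farthest to the right. WNT5B, whose point has no label, lies farthest to the left, followed by TCF7 and ROR2.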

How the data were processed

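For 8 RNA-seq libraries, 2 per group, gene tables of TPM and of FPKM were deposited by the authors, rounded to 2 decimals. The methods name cutadapt, STAR (hg38), featureCounts and DESeq2, whereas the submitters' processing notes name STAR 2.5.0 and RSEM 1.2.25 on GRCh38. The deposited columns end in .genes.results, the name RSEM gives its gene tables, so the values were taken as RSEM output. Counts were not used here, and a test on the log scale took the place of a count test. The paper describes 3 replicate experiments and this work rests on 2 libraries per group. The 92 ERCC entries were left out, and 0 columns of samples went unused.

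The log2(TPM + 0.1) values were fitted with limma 3.58.1 (R 4.3.3, lmFit and eBayes with a trend). The p-values are two-sided and were adjusted after Benjamini and Hochberg over every gene above 0 in at least 1 fitted library. siPAI-1 and Scr were compared within each line, and the lines in 1 model of 4 groups. The fit was tested on simulated data. Depth was estimated from the steps of FPKM values between 20 and 45 M reads, since a depth 2 times as large gives the same steps. It gives upper estimates of reads from the longest transcript.

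The members and lists were chosen with earlier results of these data known. Named were the members, paralogs, the 5 genes closest to RSPO4, and in each list up to 2 genes with a mean TPM of 1 or more, an adjusted p under 0.05 in both line comparisons and the largest difference in Scr. A further item that the rule would name was left out of the text. Alternatives were pseudocounts of 1 and 0.01 TPM, FPKM, median-ratio rescaling, a filter at a mean of 1 TPM, eBayes without trend, a replicate block, other sets of libraries in the fit, and each replicate left out. Figures used Python 3.11.15 with matplotlib 3.10.9.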

Additional observations from a re-analysis of the deposited data

Results flagged for a closer look

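TCF7L2 moved in opposite directions with siPAI-1 in the 2 lines: both siPAI-1 libraries lay above both Scr libraries in UM-UC-3 and below both in RT112. Such a lack of overlap in a single line was common, with 15.1% of all genes higher in UM-UC-3 and 14.7% lower in RT112. The share of all genes with opposite directions in the lines was not counted. TCF7L2 was flagged for this pattern in these same libraries. Other Wnt genes, named after their values were seen, also moved in opposite directions. LRP6, CD44 and VANGL1 had the pattern of TCF7L2, and TNKS and WNT3A had the reverse. For TCF7L2, the siPAI-1 effect in RT112 minus that in UM-UC-3 was -0.386 on the log2 scale (SE 0.155). This difference did not pass limma's test after adjustment over all genes (adjusted p = 0.719). The cause was not tested.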

How the results depend on the processing

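Of 596 values recomputed under alternatives, 284 were member differences between lines: 230 kept direction and call, 47 lost the call, 3 gained it and 4 changed direction, all 4 in differences that had not passed. TCF7L2 in siPAI-1 was 0.023 after rescaling and -0.1 to 0.085 with 1 library left out, and RSPO4 in Scr was -0.376 to 0.013. Between siPAI-1 and Scr, a mean of at least 1 TPM gave 1 gene in UM-UC-3, and 1 model over 8 libraries gave 2 in RT112 (CH507-9B2.4 and CH507-513H4.5), both named after their values were seen. With 1 library left out it stayed at 0 in both lines. The difference of the effect between lines called 7 genes by eBayes without trend and 0 to 123 with 1 library left out (1, KRT13, without UM-UC-3 Scr replicate 2; 44 without UM-UC-3 siPAI-1 replicate 1; 20 and 123 without RT112 siPAI-1 replicate 1 and 2). Members that passed between lines numbered 4 to 8 in Scr and 4 to 6 in siPAI-1 with 1 library left out, where the lone sample of a group is assumed to vary like the other groups. The replicate numbers did not pair the samples, with correlations of replicate differences between -0.04 and 0.10. The replicate block gave 0 genes between siPAI-1 and Scr in each line, 10298 and 10455 genes between lines in Scr and siPAI-1, and 7 and 5 members. It lost LGR4 in Scr (adjusted p = 0.0541) and LGR4 and RNF43 in siPAI-1 (0.0603 and 0.0545). The log2 difference of RSPO4 between siPAI-1 and Scr was -0.47 to -2.19 in UM-UC-3 and -0.50 to -3.59 in RT112 over the pseudocounts, and that of LEF1 in RT112 -0.33 to -4.48. Few reads limit RSPO4, RNF43, and AXIN2 and LEF1 in RT112. In RT112 Scr the 2 replicates, at estimated depths of 30.5 and 29.2 M reads, also differed. They had an estimated 68.9 and 0 reads of AXIN2, 7.5 and 30.7 of LEF1, and 13.4 and 38.6 of RNF43.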
